A study of Mus musculus with 10 samples.

Results

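Hox cluster genes were followed in mouse embryoid bodies (EBs), pancreatic tissue and an insulinoma line. The members were all array probes whose annotation gives exactly 1 gene symbol made of Hoxa, Hoxb, Hoxc or Hoxd and a number, without use of any measured difference between groups. This gave 35 of the 34967 discovery probes of the array and 34 of the 18069 genes that a probe names alone: 10 Hoxa, 10 Hoxb, 7 Hoxc and 7 Hoxd genes. Hoxd13 had 2 probes, of which the one with the higher mean log2 level was kept; the other was at background on all 10 arrays.

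The 10 arrays formed 5 groups of 2. The EBs came from Ainv18 ES cells that carry a Dox-inducible Pdx1-IRES-Ngn3 cassette (tet-pdx1/ngn3 ES cells), and they were harvested on day 13 of culture either without Dox, Dox(-), or with 1 µg/ml Dox from day 4, Dox(+). Both EB groups shared activin A, BMP4 and bFGF and a medium supplement that contains vitamin A, and whole floating EBs of many cell types were measured. The other groups were βTC6 cells, a mouse insulinoma line, whole islets, and whole pancreas at E15.5. The labels of the EB arrays name Pdx1 and Ngn3 in their source entry and activated Notch4 in another, and they give no age for the islets, which the study's text calls adult while a supplementary heading gives E15.5, so their age is unsettled here. Arrays of a group are labelled biological replicates without a word on whether cultures or dissections were separate, and p-values therefore describe the spread of these samples, which may be technical.

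Hox genes encode homeodomain transcription factors that give cells their position along the head to tail axis. Genes with the same number in different clusters are paralogs, and the order of genes within a cluster follows the order in which they are used along the axis, with low numbers (anterior) active in the hindbrain and neck and high numbers (posterior) in the lumbar, sacral and tail regions. Retinoic acid and Cdx factors switch clusters on during axis extension, Polycomb proteins keep unused parts silent, and Hox proteins bind DNA together with TALE partners of the Pbx and Meis families. In the embryonic gut and pancreas Hox genes are best known from the mesenchyme.

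A level here is the background-subtracted spot intensity divided by the median of its array, so the median probe of each array is at 1, and levels below 0.27 were set to 0.27. Levels of different probes are not compared, since probes differ in sensitivity. Each array had 23070 to 25993 probes above background. A probe was tested where both arrays of at least 1 group were above background, a difference was called at a limma adjusted p under 0.05 over all probes tested, and a fold is written as "at least" where neither array of the lower group was above background. Such a fold is an approximate bound, since background was called spot by spot. Of the 34 Hox genes 30 were tested. Hoxa6, Hoxa9, Hoxa13 and Hoxd11 were not, as each was above background on a single array: Hoxa6 at 0.341 in E15.5 pancreas, and Hoxa9, Hoxa13 and Hoxd11 at 0.334, 0.342 and 0.470 on the same Dox(+) array. Some genes were tested through a single group, the one where they are high. These were Hoxc9 (Dox(-) EBs), Hoxa10 and Hoxa11 (Dox(+) EBs), Hoxb1 (islets) and Hoxd9 (E15.5 pancreas). Arrays set to the floor also show no spread, so the p-values of these genes partly reflect the filter and the floor. The study removed probes that its own mapping found invalid, a step not repeated here, so a probe may read another transcript than its name says.

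**Figure D1:**
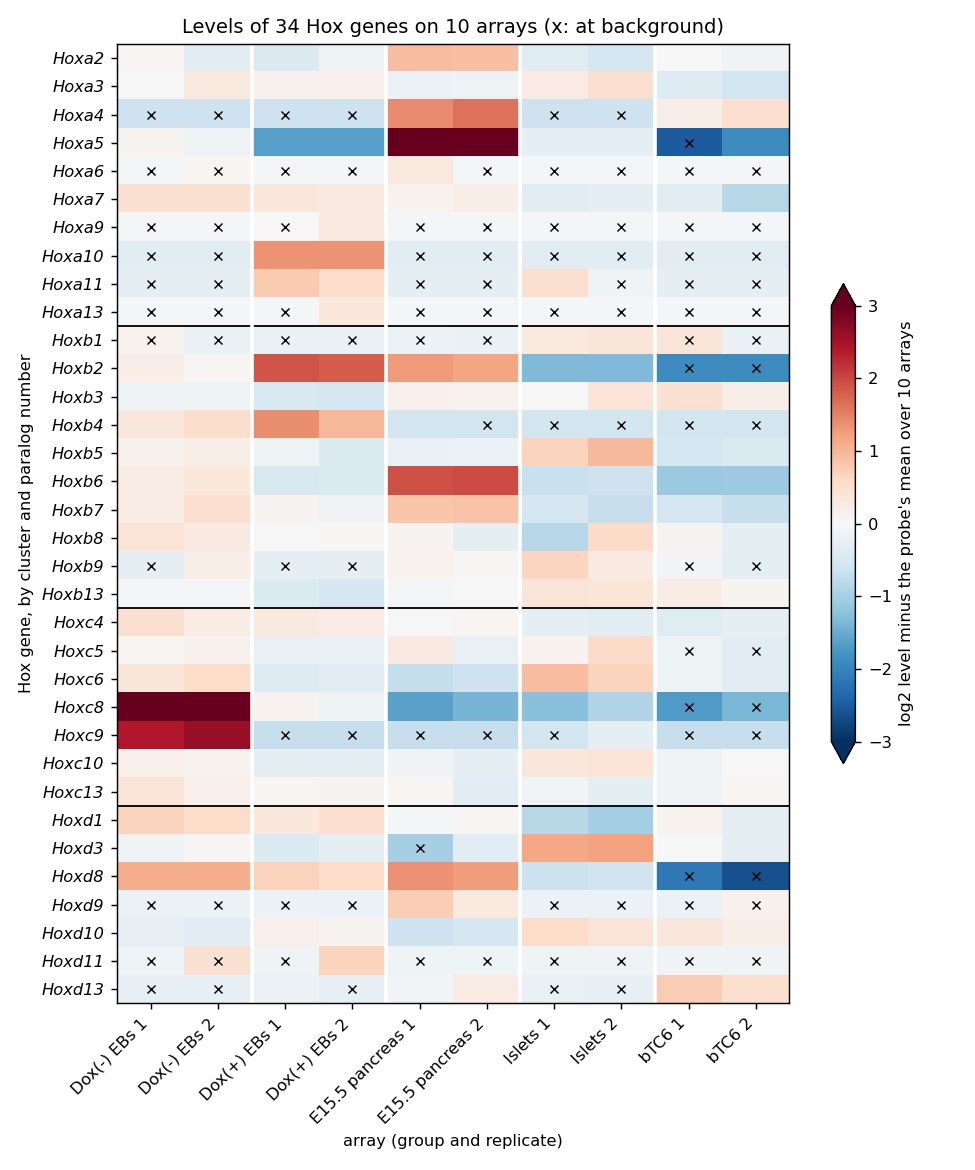
Each row is a Hox gene, ordered by cluster (black lines) and paralog number, and each column is an array; colour gives the log2 level minus the probe's mean over the 10 arrays, and a cross marks an array at background. Hoxc8 and Hoxc9 stand out in Dox(-) EBs, Hoxa5 and Hoxb6 in E15.5 pancreas, and Hoxb2 and Hoxa10 in Dox(+) EBs.

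On both arrays of a group, 23 Hox genes were above background in Dox(-) EBs, 24 in Dox(+) EBs, 24 in E15.5 pancreas, 23 in islets and 18 in βTC6 cells. Over all discovery probes of an array, the share above background was 66.0% and 68.2% in βTC6 cells and 67.2% to 74.3% on the other arrays, and the lowest level that counted as above background was higher in βTC6 cells (0.317 and 0.312) than elsewhere (0.203 to 0.278). All 7 Hoxc genes were above background in Dox(-) EBs and 4 of them in βTC6 cells. Of the Hoxa genes 4 were above background in Dox(-) EBs and 6 in Dox(+) EBs. There were 15 genes above background in all 5 groups, and for 7 of these the highest group mean was less than 2-fold over the lowest. This count leaves out genes at background in some group. The same share over all probes is not given here, so the count describes these probes only. The group mean was highest in islets for 10 of the 30 tested genes, in Dox(-) EBs for 7, in E15.5 pancreas for 7, in Dox(+) EBs for 4 and in βTC6 cells for 2.

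Dox(+) and Dox(-) EBs were compared to see which Hox genes change when Pdx1 and Ngn3 are induced. The largest differences were falls of Hoxc8, Hoxc9 and Hoxa5 and rises of Hoxb2 and Hoxa10. In all, 15 of the 30 tested Hox genes were called, 5 higher and 10 lower in Dox(+) EBs, which is 50% of them against 43.2% of all probes tested (20.7% higher and 22.5% lower). No EB array was above background on the probe named for Pdx1, and the sources used here do not say whether it reads the transcript of the cassette, so it does not check the induction. The median log2 difference was -0.22 over the Hox genes and -0.03 over all probes tested. Of the calls 5 were of 2-fold or more and 6 were under 1.5-fold.

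The steepest fall was that of Hoxc8, which is known for its role in thoracic skeleton and brachial motor neuron identity. Its level dropped from 14.2 and 17.1 without Dox to 0.949 and 0.793 with Dox, a fall of 4.16 on the log2 scale (SE 0.19) or 17.9-fold (limma adjusted p = 4.6e-08). Outside the EBs the probe lay at 0.288 and 0.336 in E15.5 pancreas, at 0.366 and 0.468 in islets, and at background in βTC6 cells. Thus both EB groups lay above every other group on this probe, and Dox(+) EBs lay between Dox(-) EBs and the rest. Its neighbour Hoxc9, which sets thoracic motor neuron identity, had levels of 2.30 and 2.68 without Dox and lay at background on both Dox(+) arrays, at least 9.21-fold lower (limma adjusted p = 7.4e-08). The Hoxc9 probe was also at background in E15.5 pancreas, in βTC6 cells and on 1 islet array, with 0.363 on the other, so a clear signal was seen in Dox(-) EBs alone among these samples. The probe was tested through that group alone, so its p-value adds no support to the fall.

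Other Hoxc genes moved less. Hoxc6, a gene of the forelimb level, went from 1.60 and 1.82 without Dox to 0.946 and 0.982 with it, 1.77-fold lower (limma adjusted p = 0.00076). Hoxc10, of the lumbar level, went from 4.11 and 3.99 to 3.07 and 3.01, 1.33-fold lower (limma adjusted p = 0.0093), a call that was lost without the first Dox(-) array (adjusted p = 0.052). The other tested members of the cluster did not pass: Hoxc4 was at 1.84 and 1.55 against 1.58 and 1.54, Hoxc5 at 0.430 and 0.449 against 0.349 and 0.355, and Hoxc13 at 1.73 and 1.46 against 1.37 and 1.40. All 4 called Hoxc genes were lower in Dox(+) EBs, and none of the 7 was called higher.

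In the Hoxa cluster a fall in the middle stood beside rises at the posterior end. Hoxa5, needed for lung and neck development and expressed in gut mesenchyme, fell from 1.61 and 1.36 without Dox to 0.491 and 0.490 with it, 3.01-fold lower (log2 -1.59, SE 0.18, limma adjusted p = 4.4e-05). Hoxa10, known from the uterus and the lumbar vertebrae, reached 0.860 and 0.864 with Dox from background on both arrays without it, at least 3.19-fold higher (limma adjusted p = 2.2e-06). Hoxa11, which patterns the forearm and the uterus, likewise reached 0.565 and 0.469 with Dox from background, at least 1.91-fold higher (limma adjusted p = 0.0025). Both genes were tested through Dox(+) EBs alone, so the filter favoured a rise and the p-values add no support to it. All levels of both genes were under 1, and with a floor of 1 neither was called, since all arrays then lie at the floor. The 4 other tested Hoxa genes were not called: Hoxa2, of the second branchial arch, at 0.823 and 0.628 against 0.583 and 0.708, Hoxa3, of thymus and parathyroid, at 3.93 and 4.83 against 4.30 and 4.36, Hoxa7 at 4.52 and 4.51 against 4.18 and 4.02, and Hoxa4 at background on all 4 EB arrays.

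Within the Hoxb cluster Hoxb2 and Hoxb4 rose and Hoxb5, Hoxb6, Hoxb7 and Hoxb13 fell. Hoxb2, a gene of the hindbrain rhombomeres, rose from 1.14 and 1.03 without Dox to 3.67 and 3.52 with it, 3.32-fold higher (log2 1.73, SE 0.13, limma adjusted p = 1.5e-06). Hoxb4, known for the expansion of blood stem cells, was at 0.500 and 0.565 against 1.03 and 0.785, 1.69-fold higher (limma adjusted p = 0.0034), a call that was lost with a floor of 0.1 or 1 and with normexp background correction. On both probes the Dox(+) arrays lay above every other array of the series. Hoxb6, of the trunk and lateral plate mesoderm, was at 4.15 and 4.48 against 2.56 and 2.71, 1.64-fold lower (limma adjusted p = 0.00017). The falls of Hoxb5, Hoxb7 and Hoxb13 were smaller: 8.66 and 8.87 against 7.08 and 5.92 for Hoxb5 (1.35-fold), 3.02 and 3.62 against 2.71 and 2.41 for Hoxb7 (1.29-fold), and 9.62 and 9.66 against 7.41 and 7.01 for Hoxb13 (1.34-fold), with limma adjusted p of 0.015, 0.043 and 0.0027. Those of Hoxb5 and Hoxb7 depended on single arrays. The Hoxb5 call was lost without either Dox(-) array or the second Dox(+) array (adjusted p up to 0.12), and that of Hoxb7 without the second Dox(-) array, either Dox(+) array or either pancreas array (adjusted p up to 0.26).

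The remaining Hoxb genes were not called between the EB groups. Hoxb3, another hindbrain gene, was at 18.9 and 19.3 against 15.4 and 14.9 (limma adjusted p = 0.054). It lay close to the threshold: under 14 of 23 alternatives it did not pass either, and under the others it was called lower, with the smallest adjusted p of 0.0096 when the EB arrays were fitted alone. Hoxb8 was at 1.26 and 1.14 against 0.947 and 0.962, with an SE of 0.36, and its islet arrays lay far apart at 0.520 and 1.40. Hoxb1, of rhombomere identity, was at background on all 4 EB arrays. Hoxb9 was above background on the second Dox(-) array, at 0.376, and on no other EB array.

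Among Hoxd genes the differences were small. Hoxd8, a trunk gene, went from 3.53 and 3.54 to 2.68 and 2.45, 1.38-fold lower (limma adjusted p = 0.033), and Hoxd10, a gene of lumbar motor neurons and limb, from 1.47 and 1.38 to 1.94 and 1.86, 1.33-fold higher (limma adjusted p = 0.017). Neither call was firm. That of Hoxd8 was lost without any 1 of the EB, islet or pancreas arrays (adjusted p of 0.050 to 0.16), and that of Hoxd10 without the second Dox(-) or the first Dox(+) array (adjusted p of 0.089 and 0.083). Hoxd1 was at 1.10 and 1.01 against 0.865 and 0.975 and Hoxd3 at 0.527 and 0.580 against 0.424 and 0.465, and neither was called. Hoxd9 was not above background on any EB array, and Hoxd13 was above it on the first Dox(+) array, at 0.283.

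**Figure D2:**
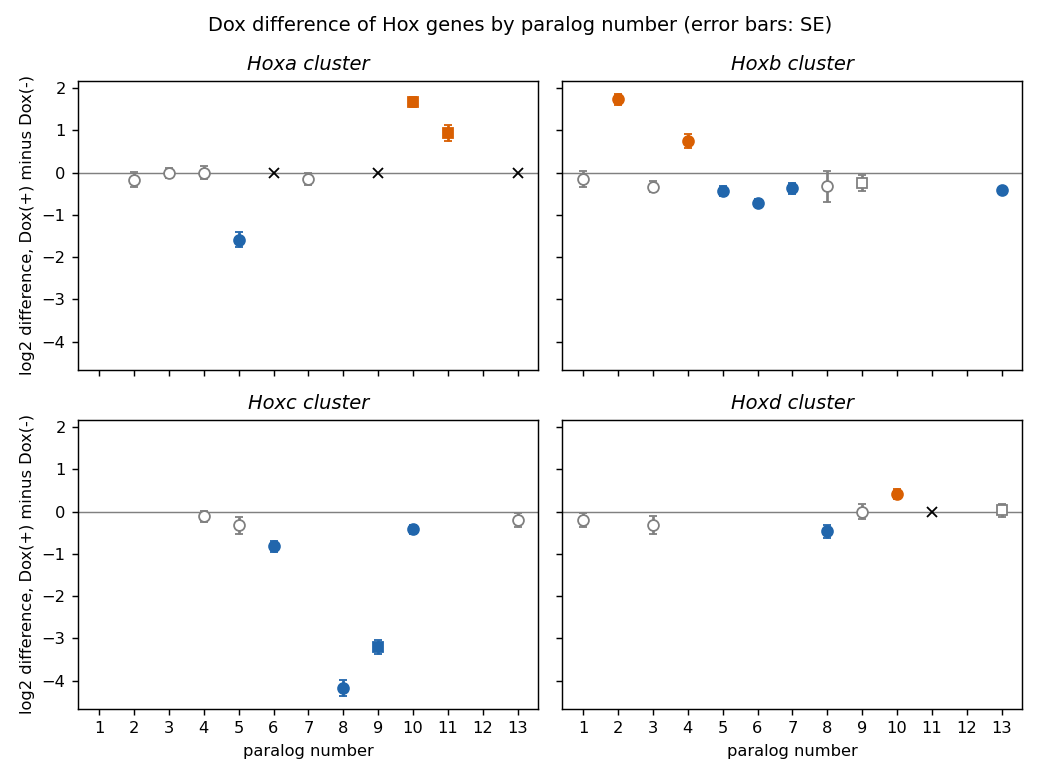
The log2 difference between Dox(+) and Dox(-) EBs (y axis, with its SE) against paralog number (x axis), a panel per cluster; filled orange and blue points were called higher and lower, open points were not called, squares had 1 group at background and so give a bound, and crosses mark genes not tested. Of the 10 calls lower 7 lie at numbers 4 to 8, which hold 13 of the 30 tested genes. In the Hoxc cluster Hoxc8 and Hoxc9 fell by 4.16 and 3.20 on the log2 scale.

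Read by position, 7 of the 10 falls lay at numbers 4 to 8, which hold 13 of the 30 tested genes. Among these 13 genes 1 was called higher, and the median log2 difference was -0.37. The falls of Hoxb5, Hoxb7 and Hoxd8 among them were not firm, as given above. Over all probes tested 20.7% were called higher and 22.5% lower. At numbers 1 to 3, 4 to 8 and 9 to 13 the share called was 14.3%, 61.5% and 60%. Of the 7 genes numbered 1 to 3, Hoxb2 was called higher and none lower, with Hoxb3 near the threshold as given above, and the median was -0.16. At numbers 9 to 13 the calls were split, with 3 higher (Hoxa10, Hoxa11, Hoxd10) and 3 lower (Hoxc9, Hoxc10, Hoxb13) of 10 tested. Hoxa10, Hoxa11 and Hoxc9 were each tested only through the EB group where they are high, so the filter favoured these calls. The Hoxd10 and Hoxc10 calls were lost when single arrays were left out, as given above. By cluster, 2 Hoxa genes were higher and 1 lower of 7 tested, 2 and 4 of 10 in Hoxb, 0 and 4 of 7 in Hoxc, and 1 and 1 of 6 in Hoxd. The share called was 42.9%, 60%, 57.1% and 33.3% in Hoxa, Hoxb, Hoxc and Hoxd, against 43.2% of all probes tested. Paralogs did not all move the same way, since Hoxa10 and Hoxd10 were called higher and Hoxc10 was called lower. These counts are few and describe these probes; whether positions or clusters differ was not tested.

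**Figure D3:**
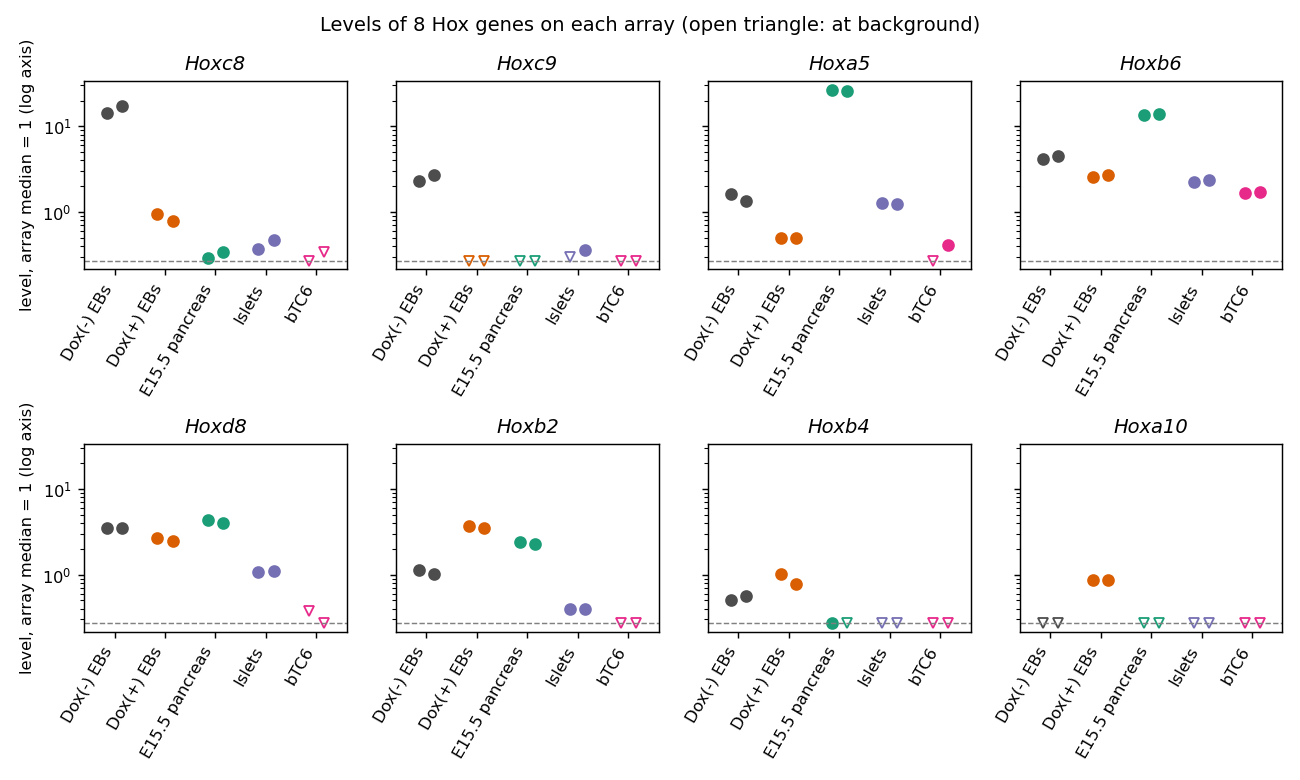
Levels of 8 Hox genes (y axis, log scale, median probe of the array at 1) on each of the 10 arrays by group, with arrays at background as open triangles and the floor of 0.27 as a dashed line. The 2 arrays of a group lie close together next to the gaps between Dox(-) and Dox(+) EBs for Hoxc8, Hoxc9, Hoxa5 and Hoxb2.

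Promoter sequences of RefSeq (GRCm38.p6) were at hand for 20 of the 34 genes, in 22 windows. The 250 bases before the start are printed here for 4 genes with a call between the EB groups, Hoxa5 and Hoxd8 (lower) and Hoxb4 and Hoxa10 (higher), so that the stretch upstream of genes that moved in opposite directions can be compared. They are written 5′ to 3′ on the strand of the gene, and capitals mark TATAAA on either strand.
Hoxa5, chr6:52204588-52204837, minus strand: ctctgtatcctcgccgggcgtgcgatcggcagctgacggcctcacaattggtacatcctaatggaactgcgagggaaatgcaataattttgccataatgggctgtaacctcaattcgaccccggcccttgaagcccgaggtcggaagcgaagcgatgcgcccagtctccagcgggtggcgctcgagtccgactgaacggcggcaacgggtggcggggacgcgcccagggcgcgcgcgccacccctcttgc
Hoxd8, chr2:74704365-74704614, plus strand: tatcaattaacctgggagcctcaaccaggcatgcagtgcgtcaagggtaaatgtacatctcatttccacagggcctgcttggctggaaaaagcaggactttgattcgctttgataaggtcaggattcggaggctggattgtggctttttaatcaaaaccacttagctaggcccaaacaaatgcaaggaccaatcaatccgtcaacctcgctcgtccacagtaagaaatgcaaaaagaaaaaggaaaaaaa
Hoxb4, chr11:96318017-96318266, plus strand: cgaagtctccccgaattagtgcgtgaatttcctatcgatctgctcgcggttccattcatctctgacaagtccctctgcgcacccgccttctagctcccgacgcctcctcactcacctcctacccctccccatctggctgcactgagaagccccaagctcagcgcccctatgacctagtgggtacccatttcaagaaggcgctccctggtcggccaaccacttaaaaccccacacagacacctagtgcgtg
Hoxa10, chr6:52234940-52235189, minus strand: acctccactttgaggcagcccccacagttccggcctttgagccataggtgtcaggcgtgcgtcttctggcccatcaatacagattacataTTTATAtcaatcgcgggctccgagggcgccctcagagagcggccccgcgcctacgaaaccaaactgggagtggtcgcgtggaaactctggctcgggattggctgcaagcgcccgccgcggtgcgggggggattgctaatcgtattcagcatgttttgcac

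Hoxa10 has another RefSeq start, whose window at chr6:52240855-52241104 holds none of the motifs searched. Both strands of the 250 bases were searched for TTTATG (Cdx), TGATNNAT (Hox with Pbx), TGACAG (Meis) and TATAAA. Of the Hoxa5, Hoxd8 and Hoxb4 windows none held any of these letters, and the Hoxa10 window held TATAAA at -160 from the start. Over all 22 Hox windows TTTATG stood in 4 (Hoxa7, Hoxb8, Hoxd3, Hoxd11), against 10.8% of all 32851 promoters. TGATNNAT stood in 4 (Hoxa2, Hoxb1, Hoxb8, Hoxd11), against 7.68%, TGACAG in 2 (Hoxa2, Hoxa3), against 15.9%, and TATAAA in 3 (Hoxa10, Hoxb8, Hoxd13), against 12.4%. The members of the TTTATG set were not called between the EB groups or not tested. Most called genes had no window: Hoxb2, Hoxb5, Hoxb6, Hoxb7, Hoxb13, Hoxc6, Hoxc8, Hoxc9 and Hoxc10. The search therefore does not say whether called genes carry these letters. A match of letters is a description of the window and shows no binding.

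E15.5 pancreas differed from both EB groups mostly on Hoxa4, Hoxa5 and Hoxb6, which were higher there, and on Hoxc8, which was lower. Hoxa5 was at 26.9 and 26.0 in pancreas, 53.9-fold above Dox(+) EBs (limma adjusted p = 2.8e-09) and 17.9-fold above Dox(-) EBs (limma adjusted p = 2.8e-08). Hoxb6 was at 13.5 and 13.9, 5.20-fold above Dox(+) and 3.17-fold above Dox(-) EBs. Hoxa4, which was at background on all EB arrays, was at 1.11 and 1.28 in pancreas, at least 4.41-fold higher than in either EB group. These genes carry numbers 4 to 6, but others there, such as Hoxb4 and Hoxc6, were higher in Dox(-) EBs. Of the 13 tested genes numbered 4 to 8, 5 were called higher and 4 lower in Dox(-) EBs (against 33.6% and 24.8% of all probes). For Dox(+) EBs 2 were higher and 5 lower (against 33% and 26.9%). Hoxb7 at 4.57 and 4.70 was also above both EB groups (1.81-fold over Dox(+) and 1.40-fold over Dox(-) EBs). Its call against Dox(-) EBs was lost without the first Dox(-) array or the second pancreas array. Hoxa2 at 1.50 and 1.47 was 2.31-fold and 2.07-fold above Dox(+) and Dox(-) EBs. Hoxd9, at background on all EB arrays, was at 0.504 and 0.372 in pancreas, at least 1.60-fold higher than in either EB group, a call that was lost without the first pancreas array (adjusted p = 0.057 and 0.059).

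In the other direction Hoxc8 was 50.0-fold higher in Dox(-) EBs than in pancreas and 2.79-fold higher in Dox(+) EBs. Hoxc9 was at least 9.21-fold higher in Dox(-) EBs, while in Dox(+) EBs it was at background as in pancreas. The Hoxc9 probe was tested through Dox(-) EBs alone, so the filter favoured this difference. Hoxc6, at 0.753 and 0.806 in pancreas, was 2.19-fold higher in Dox(-) EBs and not called for Dox(+) EBs. Hoxb4 had 1 pancreas array above background, at 0.265, and was 3.33-fold higher in Dox(+) and 1.97-fold higher in Dox(-) EBs on the floored levels. Hoxa10 was at background in pancreas and at least 3.19-fold higher in Dox(+) EBs. For Hoxb2, at 2.41 and 2.27, pancreas lay between the EB groups, 2.17-fold above Dox(-) and 1.53-fold below Dox(+) EBs (limma adjusted p = 3.1e-05 and 0.0016).

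In all, 15 of 30 tested Hox genes were called between Dox(+) EBs and pancreas, 6 higher and 9 lower in the EBs (50%, against 60% of all probes, 33% higher and 26.9% lower). Between Dox(-) EBs and pancreas 16 were called, 9 higher and 7 lower (against 58.5% of all probes, 33.6% higher and 24.8% lower). The share of Hox genes called was below that of all probes in both cases. The Hoxc genes made the clearest contrast of counts: 5 of 7 were called higher in Dox(-) EBs than in pancreas, namely Hoxc4, Hoxc6, Hoxc8, Hoxc9 and Hoxc10, and Hoxc8 alone in Dox(+) EBs. Of these 5, Hoxc9 was tested through Dox(-) EBs alone, so the filter favoured its call. The Hoxc4 and Hoxc10 calls (1.25-fold and 1.26-fold) were lost when single arrays were left out. Both comparisons share the pancreas arrays, and the slide numbers in the file headers fall in separate ranges for EBs, pancreas, and islets with βTC6 cells, so slide and tissue cannot be told apart here.

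**Figure D4:**
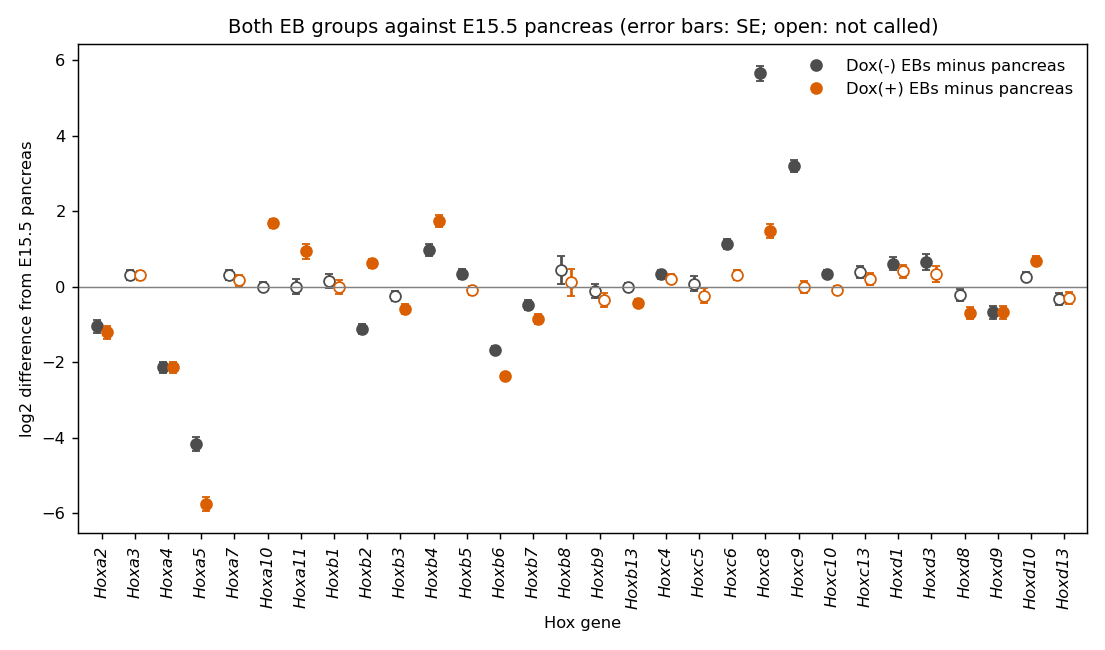
The log2 difference of Dox(-) EBs (grey) and Dox(+) EBs (orange) from E15.5 pancreas (y axis, with its SE) for the 30 tested Hox genes (x axis); filled points were called. Hoxa5, Hoxa4 and Hoxb6 lie below 0 for both EB groups, and Hoxc8 and Hoxc9 lie far above 0 for Dox(-) EBs.

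Islets, the tissue in which mature endocrine cells sit, had signal on many Hox probes. These samples also held acinar and mesenchyme RNA, as given below, so the cells that carry the signal are not known. Against E15.5 pancreas, 19 of 30 tested genes were called, 11 higher in pancreas and 8 higher in islets (against 65% of all probes, 32.5% higher in pancreas and 32.4% lower). Hoxa5 at 1.26 and 1.24 in islets was 21.1-fold higher in pancreas (limma adjusted p = 6.6e-09), Hoxb6 at 2.24 and 2.33 was 5.99-fold higher and Hoxb2 at 0.399 and 0.394 was 5.91-fold higher. Hoxa4, at background in islets, was at least 4.41-fold higher in pancreas. Hoxd8 at 1.07 and 1.10 was 3.81-fold higher in pancreas, where it was at 4.31 and 3.97, and Hoxb7 at 1.83 and 1.60 was 2.71-fold higher. Hoxa2 was 2.56-fold higher in pancreas. The other 4 genes called higher in pancreas were Hoxd1 (1.89-fold), Hoxd9 (at least 1.60-fold), Hoxa7 (1.36-fold) and Hoxc4 (1.26-fold), and each of the last 3 lost its call when single arrays were left out.

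A second set was higher in islets than in pancreas. Hoxd3, of the neck vertebrae, was at 1.26 and 1.30 in islets and at background and 0.444 in pancreas, 3.60-fold higher on the floored levels (limma adjusted p = 2.2e-05). Hoxc6 was at 2.37 and 1.98 in islets, 2.78-fold higher, Hoxd10 at 2.55 and 2.30 against 1.13 and 1.24 was 2.04-fold higher, and Hoxb5, of the enteric nervous system, at 12.47 and 15.48 against 6.89 and 6.99 was 2.00-fold higher. Other probes above background on both islet arrays were Hoxa2 (0.614 and 0.549), Hoxa3 (4.72 and 5.50), Hoxa7 (2.64 and 2.71), Hoxb1 (0.374 and 0.394), Hoxb3 (21.2 and 27.4), Hoxb8 (0.520 and 1.40), Hoxb9 (0.511 and 0.396) and Hoxb13 (12.9 and 12.6). The same held for Hoxc4 (1.08 and 1.06), Hoxc5 (0.439 and 0.606), Hoxc8 (0.366 and 0.468), Hoxc10 (4.68 and 4.91), Hoxc13 (1.24 and 1.09) and Hoxd1 (0.389 and 0.344). Hoxb1 was above background on both arrays in islets and in no other group, at levels near the floor, and its call against pancreas was lost without either array of islets, pancreas or Dox(+) EBs (adjusted p up to 0.13).

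Dox(+) EBs differed from islets on 20 of 30 tested Hox genes, 9 higher and 11 lower in the EBs (against 68% of all probes, 36.4% higher and 31.6% lower). Hoxb2 was 9.06-fold higher in the EBs (limma adjusted p = 5.2e-09), Hoxb4 and Hoxa10 were at least 3.33-fold and 3.19-fold higher, Hoxd1 2.51-fold, Hoxd8 2.36-fold and Hoxc8 2.10-fold. Lower in the EBs were Hoxd3 (2.88-fold), Hoxa5 (2.55-fold), Hoxc6 (2.25-fold), Hoxb5 (2.15-fold) and Hoxb13 (1.77-fold). By position, 6 of 13 genes numbered 4 to 8 were higher in the EBs and 4 lower, and 1 of 10 genes numbered 9 to 13 was higher, Hoxa10, and 4 lower.

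βTC6 cells had the fewest Hox probes above background, on arrays with the highest limit for that call. Hoxb2, Hoxb4, Hoxc8, Hoxc9, Hoxd8 and Hoxa10 were at background on both arrays there, as were Hoxc5 and Hoxb9, and Hoxa5 was at background on 1 array and at 0.408 on the other. Hoxc5 shows the limit, since 0.370 and 0.328 counted as background in βTC6 cells and 0.349 and 0.355 as above it in Dox(+) EBs. Compared with Dox(+) EBs, 17 of 30 tested genes were called, 13 higher and 4 lower in the EBs (against 62.9% of all probes, 25.5% higher and 37.5% lower). Hoxb2 was at least 11.4-fold higher in the EBs (limma adjusted p = 2.2e-09), Hoxd8 at least 7.46-fold, Hoxb4 at least 2.86-fold, Hoxa10 at least 2.74-fold and Hoxc8 at least 2.65-fold. The exceptions, higher in βTC6 cells, were Hoxa4 at 0.473 and 0.578 (at least 1.94-fold), Hoxd13 at 0.542 and 0.449 (1.79-fold on the floored levels), Hoxb3 at 28.7 and 23.7 (1.72-fold) and Hoxb13 at 11.4 and 10.4 (1.51-fold). The Hoxb3 call was lost with quantile normalization (log2 -0.33, adjusted p = 0.056). Over all probes tested the median of this comparison was -0.11 on the log2 scale and 0 after quantile normalization, and relative to that median the Hox differences of this comparison lie 0.11 higher than printed.

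Against islets, βTC6 cells were lower on 13 and higher on 3 of 30 tested Hox genes (against 66.1% of all probes, 39.1% higher and 27% lower), with a median of -0.26 over the Hox genes and 0.12 over all probes, the latter 0 after quantile normalization. Hoxd8 was at least 3.16-fold lower, Hoxa5 3.78-fold lower on the floored levels, Hoxd3 at 0.571 and 0.471 was 2.47-fold lower, Hoxb5 at 5.46 and 5.86 was 2.46-fold lower, and Hoxc6 at 1.11 and 1.00 was 2.06-fold lower. Several of the 13 lower calls were not firm. Hoxa11, above background on 1 islet array and on no βTC6 array, lost its call under 16 alternatives. Hoxb13 lost its call under 11, Hoxc5 under 7 and Hoxb9 under 4. The genes higher in βTC6 cells were Hoxa4 (at least 1.94-fold), Hoxd13 (at least 1.81-fold) and Hoxd1 at 0.747 and 0.575 (1.79-fold). Also above background on both βTC6 arrays were Hoxa2 (0.784 and 0.735), Hoxa3 (3.02 and 2.67), Hoxa7 (2.60 and 1.86), Hoxb6 (1.66 and 1.69), Hoxb7 (1.81 and 1.60), Hoxb8 (1.01 and 0.772), Hoxc4 (1.02 and 1.08), Hoxc10 (3.44 and 3.73), Hoxc13 (1.24 and 1.38) and Hoxd10 (2.20 and 2.01). Several of these, such as Hoxb3, Hoxb13, Hoxc10 and Hoxa3, varied by less than 2-fold over all 5 groups.

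Of 71 tested genes that act with Hox proteins or on the clusters, or lie next to them, 33 were called between Dox(+) and Dox(-) EBs, a share close to the 43.2% of all probes. Of 7 measured TALE cofactors 5 were called higher in Dox(+) EBs and none lower (against 20.7% and 22.5% of all probes), with a median log2 difference of 0.97. Pbx3 went from 2.30 and 2.17 to 10.7 and 10.3 with Dox, 4.70-fold higher (limma adjusted p = 5.9e-07), Meis2 was 2.99-fold higher with 1 Dox(-) array missing, Meis3 2.03-fold, Pknox1 1.96-fold and Meis1 1.65-fold. Meis and Pbx proteins bind DNA beside Hox proteins, and Pknox1 encodes a relative of the Meis proteins. Of the 6 Cdx and ParaHox factors Gsx1 was called higher and Cdx2 and Cdx4 lower. Cdx2, which acts on the middle part of Hox clusters during axis extension and later in the intestine, dropped from 45.6 and 48.2 to 4.05 and 3.13 with Dox, 13.2-fold lower (limma adjusted p = 1.9e-07). Cdx4 was at 4.93 and 4.91 against 3.77 and 3.98, 1.27-fold lower.

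The retinoic acid pathway had 7 of 14 tested genes lower and 3 higher in Dox(+) EBs (against 22.5% and 20.7% of all probes). Dhrs3, which returns retinal to retinol and is itself switched on by retinoic acid, was at 11.0 and 10.4 against 1.07 and 0.890, 11.0-fold lower (limma adjusted p = 2.7e-08). Crabp2, a carrier that delivers retinoic acid to its receptors, was 3.89-fold lower, the receptor genes Rxra, Rarg, Rarb and Rara 2.96-fold, 2.64-fold, 2.59-fold and 1.48-fold lower, and Cyp26a1, which breaks retinoic acid down, at least 2.20-fold lower. In contrast Crabp1, the other cellular carrier, was at 2.58 and 2.50 against 34.8 and 42.9, 15.2-fold higher (limma adjusted p = 5.8e-09). Stra6 and Rxrg also lay higher with Dox. Stra6 was at background on both Dox(-) arrays and at 0.581 and 0.560 on the Dox(+) arrays. Rxrg was at 4.16 and 4.08 against 5.07 and 5.07. Aldh1a1 and Aldh1a2, which make retinoic acid, were not called between the EB groups and lay at 52.7 and 55.6 and at 9.85 and 10.1 in E15.5 pancreas, against levels from 0.815 to 1.17 on the EB arrays.

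**Figure D5:**
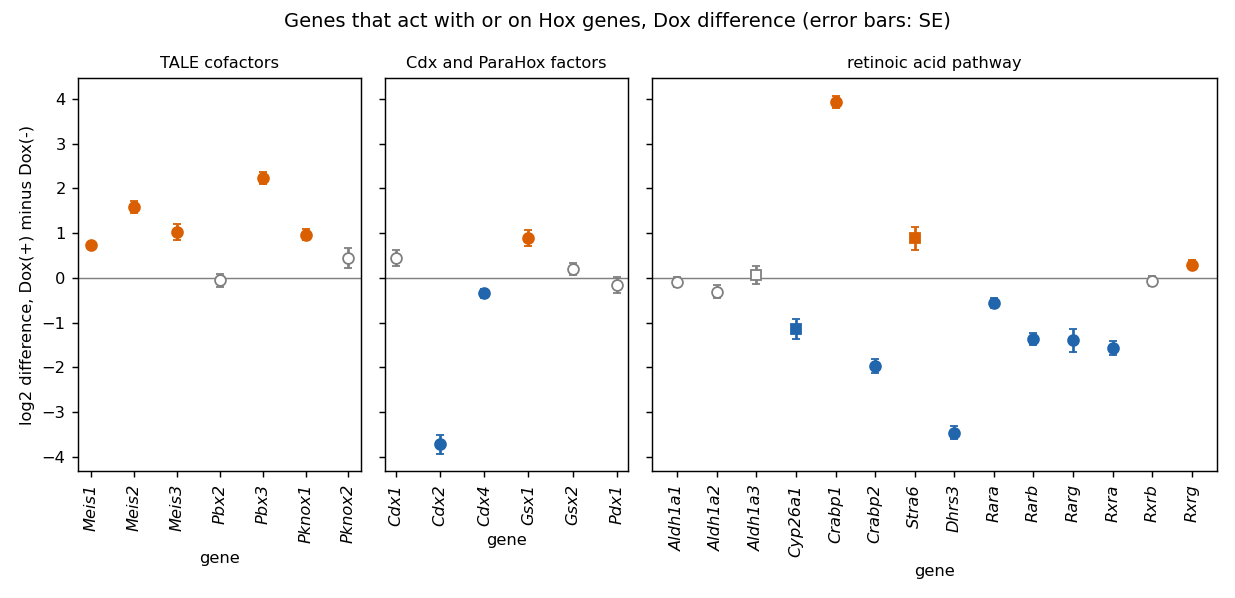
The log2 difference between Dox(+) and Dox(-) EBs (y axis, with its SE) for the measured TALE cofactors, Cdx and ParaHox factors and retinoic acid pathway genes (x axis); filled orange and blue points were called higher and lower, and squares give a bound. Of the 7 TALE cofactors 5 were higher, and Cdx2 and Dhrs3 were 13.2-fold and 11.0-fold lower.

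Among chromatin regulators of the clusters, 3 of 20 Polycomb genes were called higher and 4 lower (against 20.7% and 22.5% of all probes) and the median log2 difference was -0.09, among which Rbbp7 was 2.06-fold lower and Phc1 1.71-fold higher, and the subunits Ezh2 and Eed were not called. Of 9 Trithorax and demethylase genes 3 were called lower and none higher, Ash2l, Dpy30 and Men1 by 1.40-fold, 1.39-fold and 1.28-fold. Next to the clusters themselves, 1 of 9 genes was called higher and 2 lower: Lnpk, near Hoxd, was 1.60-fold higher, Hibadh, near Hoxa, 1.60-fold lower, and Ttll6, near Hoxb13, at 0.982 and 1.14 against 0.289 and 0.414, 3.06-fold lower. In the hindbrain list Otx2 and En1, which mark the brain in front of the Hox territory, were higher by at least 5.57-fold and by 4.90-fold, and the other 4 genes were not called. Of antisense transcripts named for Hox genes, Hoxb5os was at 1.95 and 2.14 in E15.5 pancreas and at the floor on both Dox(+) arrays, and none was called between the EB groups; the sources used here do not say whether a probe tells the strands apart.

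Markers of other cell types also differed between the EB groups, where 20.7% of all probes were called higher and 22.5% lower in Dox(+) EBs. The summed level of 15 mesenchyme markers was 713 and 758 without Dox, 288 and 294 with Dox, 510 and 503 in E15.5 pancreas, 114 and 115 in islets and 44.3 and 46.2 in βTC6 cells, and 8 of the 15 were called lower and 4 higher in Dox(+) EBs. Of the mesenchyme markers 14 or 15 were above background on the EB, islet and pancreas arrays and 8 in βTC6 cells. All 10 neuronal markers were higher in Dox(+) EBs, where their sum was 216 and 194 against 4.71 and 5.07 (3 of 10 above background in Dox(-) EBs), and 10 of 11 islet endocrine markers were higher. The same neuronal markers were also high in the endocrine samples, with sums of 388 and 422 on the βTC6 arrays and of 151 and 141 on those of islets, against 27.6 and 26.1 for E15.5 pancreas. Of 8 measured spinal cord and motor neuron markers 4 of the 6 tested were higher and none lower. One of the 4 is Isl1, which also counts among the endocrine markers. The summed level of the 8 was 7.18 and 7.34 without Dox and 54.2 and 47.3 with it, of which Isl1 gave 44.6 and 38.2. Islet arrays had larger sums (76.2 and 75.4), as had the βTC6 arrays (138 and 123), and E15.5 pancreas smaller ones (19.8 and 19.5). Whether motor neurons were present was not tested. All 5 tested heart muscle markers and 2 of 4 blood markers were lower in Dox(+) EBs, with heart sums of 131 and 187 against 9.83 and 10.3. In such whole samples fewer cells of a type and less RNA per cell cannot be told apart, and the part of these cell types in the Hox differences was not tested. As for the labels of the tissues, the islets and βTC6 cells had all 11 endocrine markers above background, apart from Gcg in islet replicate 2, where the spot was missing. Acinar RNA was present in islets too: all 7 acinar markers were called higher there than in βTC6 cells. Several of these spots were saturated, namely Gcg, Sst, Ppy, Chga and 5 acinar genes in islets, so their sums are not ranked. Col3a1 was saturated in Dox(-) EBs and E15.5 pancreas, and the mesenchyme sums there are lower bounds.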

How the data were processed

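Arrays of 1 colour (CodeLink Mouse Whole Genome) measured the total RNA of 5 groups of 2 samples. The deposited files hold intensity values: per the file headers and the labels, the authors' software was CodeLink Expression Analysis 4.1.0.29054, in which each spot's mean less its local background (median) is set relative to the array median, and this normalized intensity was taken over unchanged. The GeneSpring 7 step and the removal of invalid probes were not repeated. Each array has 36227 spots, of which 1260 control spots were left out. Masked, contaminated and irregular spots count as missing, while saturated spots stayed in. Probes were named through the deposited platform annotation, updated with a GRCm38.p6 gene table used for names only: 21615 probes have 1 symbol, 681 have several and 12671 have none. Microarray signal over background and the 2 arrays per group limit the precision.

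After a floor of 0.27 and a log2 transform, a model with a mean for each of the 5 groups was fitted in limma 3.58.1 (R 4.3.3) over the 10 arrays (eBayes with trend and robust weights, 5 residual degrees of freedom, median prior 5.18). Tested were the 28259 probes for which some group had both its arrays above background, with p adjusted by Benjamini-Hochberg and a threshold of 0.05. Where a group was at background on both arrays, the fold is a bound. It was computed against each array's lowest signal above background, or the spot's own level if higher, and against the floor. The smaller fold was taken. Some spots above that lowest signal still counted as background, such as Hoxb1 at 0.395 on the first βTC6 array, where the lowest signal was 0.317. The bounds are therefore approximate. Named are the 10 called Hox genes with the largest difference between the EB groups, the 6 in each other comparison, every member above background in islets or βTC6 cells, and up to 4 genes of each pathway list by adjusted p; further TALE, Cdx and retinoic acid genes and all other members were added for completeness. The highest member of each cluster in each group was not ranked, since levels of different probes are not compared. The members and lists were chosen with earlier results of these data known. Lists of neural crest and enteric glia, endothelium, gut epithelium, and pluripotency markers were also measured: 0 of 4 higher and 2 lower, 2 of 6 higher and 0 lower, 2 of 9 higher and 4 lower, and 2 of 5 higher and 1 lower in Dox(+) EBs; of 7 acinar markers 5 were higher and 0 lower. Over all probes tested 20.7% were called higher and 22.5% lower in Dox(+) EBs. The fit was tested on simulated data. The alternatives tried were a floor of 0.1 or 1, quantile normalization alone or after normexp (offset 50), no filter or a filter on all arrays, a fit of the EB arrays alone, plain eBayes, a replicate block, a 2-fold minimum, keeping flagged spots, another probe rule, and leaving out each array; scaling to the median of probes above background on all arrays was added after the values were seen. Python 3.11.15, pandas 2.3.3 and matplotlib 3.10.9 made the figures and the sequence search.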

Additional observations from a re-analysis of the deposited data

How the results depend on the processing

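No Hox gene called in the main fit was called in the other direction under any alternative tried. Genes without a call there could take either sign. Hoxb8, whose islet arrays lay at 0.520 and 1.40, is the clearest case. Its log2 difference over the alternatives ran from -0.67 to 0.76 for pancreas against islets, and from -0.67 to 0.76 for βTC6 cells against islets. A 2-fold minimum and a filter on background lowered the counts of called genes. Among the 15 Hox genes tested with probes above background on all 10 arrays, 8 were called between Dox(+) and Dox(-) EBs (1 higher, 7 lower), 6 between Dox(+) EBs and E15.5 pancreas, 8 between Dox(-) EBs and pancreas, 10 between Dox(+) EBs and islets, 8 between Dox(+) EBs and βTC6 cells, 11 between pancreas and islets, 6 between βTC6 cells and islets, and 3 at paralog numbers 9 to 13; fewer genes were tested. With a 2-fold minimum these counts were 5, 7, 8, 10, 5, 11, 5 and 2, and 15 of the pathway genes were called where 33 of 71 had been. A floor of 1 left 13 calls between Dox(+) EBs and islets, 9 between Dox(+) EBs and βTC6 cells and 8 between βTC6 cells and islets, where genes under 1 on all arrays cannot differ.

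Leaving out each array in turn gave 11 to 16 called genes between the EB groups, 14 to 16 for Dox(+) EBs against pancreas, 11 to 19 for Dox(-) EBs against pancreas, 17 to 20 against islets, 15 to 17 against βTC6 cells, 16 to 19 for pancreas against islets, 13 to 17 for βTC6 cells against islets, 5 to 6 at paralog numbers 9 to 13, and 25 to 35 of the pathway genes. Between the EB groups Hoxc8, Hoxc9, Hoxa5 and Hoxb2 were called under every alternative that tested them. Hoxc9 was tested through Dox(-) EBs alone in the main fit, so the filter favoured its call. Hoxd8 and Hoxb7 lost their call in 11 and 9 of the alternatives.

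The replicate numbers did not pair the samples, as the correlations of same-numbered deviations between groups ran from -0.08 to 0.07. With the replicate block 14 Hox genes were called between the EB groups, and the Hoxb7 call was lost. Signal near background limits Hoxa10, Hoxa11, Hoxb1, Hoxb4, Hoxb9, Hoxc5, Hoxd9 and Hoxd13, and the 4 untested genes throughout. The Hoxa4 and Hoxd13 calls that put βTC6 cells above Dox(+) EBs and islets were lost with a floor of 1.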
